A study of Homo sapiens with 4 samples.

Results

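Cadherins are calcium-dependent adhesion proteins that hold neighbouring cells together, and their loss or exchange is a hallmark of the epithelial-mesenchymal transition (EMT), in which epithelial cells give up their junctions and gain a motile, fibroblast-like form. The transcription factors SNAI1 (Snail), SNAI2 (Slug), TWIST1 and ZEB1 drive this change, and SNAI1, SNAI2 and ZEB1 repress the E-cadherin gene CDH1 directly through E-box elements. Vimentin, the product of VIM, is the intermediate filament protein of mesenchymal cells and is abundant in invasive breast cancer lines of the basal type.

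The genes described here were CDH1, CDH2, CDH3, CDH11, CDH13, SNAI1, SNAI2, TWIST1, ZEB1 and VIM, 10 in all, and their members were all probe sets for which the platform's gene table lists only that symbol. They came to 14 of the 22277 probe sets on the array and to 9 of 11963 genes. CDH13, which encodes the GPI-anchored T-cadherin, has no listed probe set and was not analysed here.

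RNA came from MDA-MB231, a human breast cancer line that grows as elongated, invasive cells, carrying either a scrambled control shRNA or PIAS1 shRNA2. PIAS1 attaches the small protein SUMO to its targets in the nucleus and acts as a repressor of transcription. Both hairpins were expressed from the U6 promoter of a lentiviral vector in stably selected cells, so each shRNA stands for a single line, and the second PIAS1 hairpin of the study was not on these arrays. Each line spent 30 h either in DMEM containing 10% FBS (below DMEM) or in SCM, a serum-free stem cell medium with EGF, basic FGF and insulin, which gave 4 conditions with 1 Affymetrix array each. No ratio therefore has a replicate error, and none was given a test or a p-value. The arrays of a line in both media are not replicates of the shRNA.

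The PIAS1 signal checks the labels. On its probe set used here, PIAS1 read 1383 (control shRNA) and 512 (PIAS1 shRNA2) in DMEM, and 1814 and 671 in SCM. The log2 ratio was -1.43 in both media. PIAS1 was lower on its other probe sets too, but on 1 of them by little in SCM, at 704 and 548, a log2 ratio of -0.36. The authors' scaling left a median signal between 569 and 605 on the arrays. Signals at or under 181 were treated as background, a level taken from 51 genes that are specific to lens, pancreas, retina and other distant tissues, and between 64.8% and 68.5% of all probe sets were above this floor. The 3' to 5' signal ratio for ACTB, which tracks RNA integrity, was 0.982 and 0.946 in DMEM and 1.07 and 1.11 in SCM, with control shRNA first, and that for GAPDH was 0.860 and 0.858 in DMEM and 0.834 and 0.879 in SCM. Among marker genes of mesenchymal breast lines, VIM, CD44, AXL, MSN and CAV1 were above the floor on all 4 arrays, whereas SPARC was above it in PIAS1 shRNA2 cells only. Of 7 luminal markers, 6 were also above it on all arrays (ESR1, GATA3, KRT8, KRT18, KRT19 and EPCAM) and FOXA1 on none. ESR1 was so on 1 of its 9 probe sets, with signals of 216 and 206 in DMEM and 706 and 357 in SCM, and each of the other 8 was under the floor on at least 2 arrays. From these arrays the paper names ESR1 as one of the genes that PIAS1 knockdown strongly induced. By Q-PCR it found no detectable ESR1 in control shRNA cells and again reports induction. The signals of the 1 probe set above the floor on all arrays did not have that order. Another ESR1 probe set did in DMEM, at 39.1 (control shRNA) and 218 (PIAS1 shRNA2), but was under the floor in SCM. Lower signals with PIAS1 shRNA2 came from a further one in DMEM, at 185 and under the floor, and from one in SCM, at 247 and 200. PTPRC, which marks all leukocytes, was under the floor on all arrays. CD3D was above it on 3 arrays, reaching 345, and CD14 read between 355 and 1172. Of the 51 genes behind the floor, between 11 and 16 had a signal above it, depending on the comparison. TSHB rose past 2-fold for the knockdown in DMEM, and GAST did so for SCM in control shRNA cells. Genes of distant tissues can thus pass both the floor and the 2-fold mark, which limits the reading of dim signals.

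The main pattern was a gain of CDH11 with PIAS1 shRNA2 in both media and a stable high vimentin signal. In control shRNA cells SNAI1 and SNAI2 also changed in opposite directions between media. CDH11 was 3.47-fold higher in DMEM and 4.45-fold higher in SCM with PIAS1 shRNA2. SNAI2 was 3.28-fold lower in SCM than in DMEM in control shRNA cells and 2.56-fold lower in PIAS1 shRNA2 cells. SNAI1 was at least 4.14-fold higher in SCM in control shRNA cells, from a signal under the floor, and 1.54-fold higher in PIAS1 shRNA2 cells. Changes of 2-fold between media were common, with 10.8% of all genes higher and 10.7% lower in control shRNA cells. CDH1, CDH3 and TWIST1 were under the floor on every array.

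The classical cadherins of epithelial tissue gave background signals. CDH1, which encodes E-cadherin, the main adhesion molecule of epithelial adherens junctions, read 7.68 (control shRNA) and 30.6 (PIAS1 shRNA2) in DMEM, and 23.2 and 135 in SCM. On its other probe set the CDH1 signals were 29.8 and 48.9 in DMEM and 8.96 and 6.31 in SCM. The pair of CDH1 probe sets was highest on different arrays, and no ratio is given because all signals were under the floor. CDH3, the P-cadherin gene of basal and myoepithelial cells, lay between 29.4 and 51.9 on its single probe set.

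CDH2, which encodes the N-cadherin of neural and mesenchymal cells, stayed near the floor as well. On the brighter of its probe sets CDH2 read 180 (control shRNA) and 146 (PIAS1 shRNA2) in DMEM, and 248 and 175 in SCM. Only the control shRNA array in SCM lay above the floor, at least 1.37-fold above either neighbouring condition. The dimmer CDH2 probe set ranged from 17.2 to 73.6 and was highest in PIAS1 shRNA2 cells in SCM, so it did not share this order.

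CDH11 encodes cadherin-11 (OB-cadherin), an adhesion protein of osteoblasts and other mesenchymal cells. It was the only cadherin among these genes that was above the floor on all 4 arrays. On the brighter probe set CDH11 read 1854 (control shRNA) and 6438 (PIAS1 shRNA2) in DMEM, and 2082 and 9255 in SCM. Both PIAS1 shRNA2 signals were thus above both control shRNA signals, whichever medium is compared. The medium made less difference, with CDH11 1.12-fold higher in SCM in control shRNA cells and 1.44-fold higher in PIAS1 shRNA2 cells.

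The name of this CDH11 probe set ends in _x_at, the manufacturer's mark for probes that may also bind related transcripts. The other CDH11 probe set, without that mark, read 1271 and 2732 in DMEM and 1148 and 3918 in SCM, in the same order of shRNA. Its ratios of PIAS1 shRNA2 over control shRNA were 2.15 in DMEM and 3.41 in SCM. The direction was therefore shared, but the size in DMEM was 1.80 on the log2 scale on one CDH11 probe set and 1.10 on the other. Across 2644 genes with several probe sets above the floor on all arrays, the log2 ratios of a gene's probe sets in DMEM spanned 0.25 at the median and 0.73 at the 90th percentile, and in SCM 0.26 and 0.73. These spans describe how far a gene's probe sets disagree on the ratio of the same 2 arrays and not the error between cultures.

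**Figure D1:**
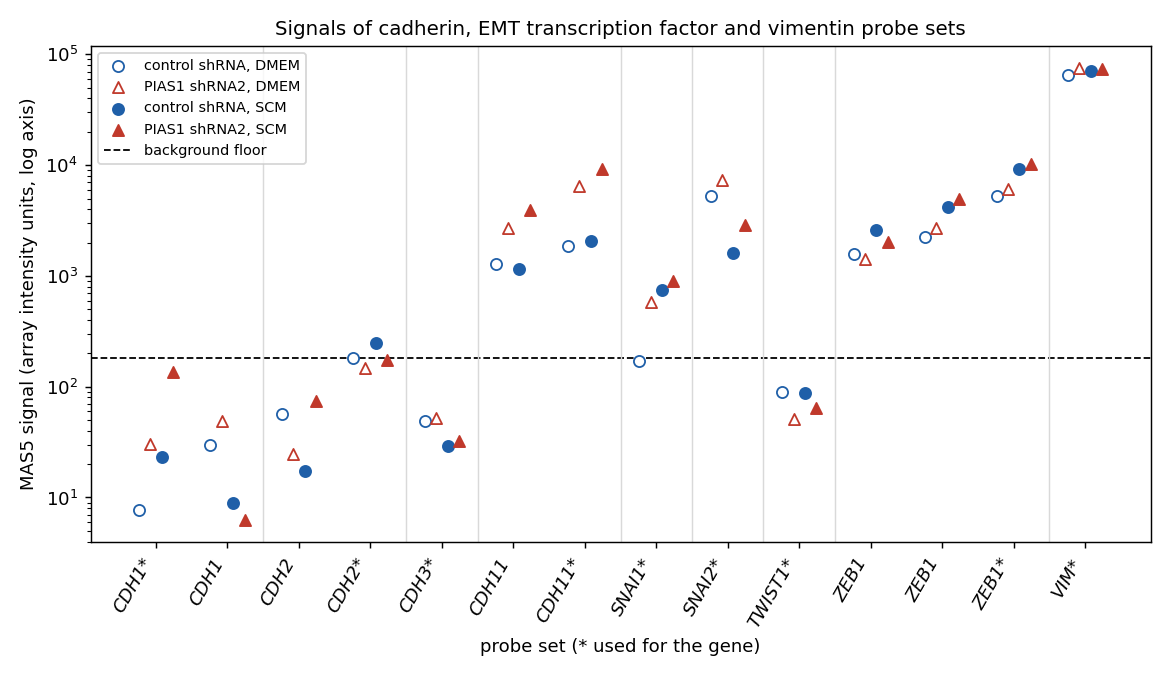
MAS5 signal in array intensity units (y axis, log scale) of the 14 probe sets (x axis, an asterisk marks the one used for each gene) on the 4 arrays, 1 per condition. Round symbols stand for control shRNA and triangular ones for PIAS1 shRNA2, those in DMEM without and those in SCM with fill, and a dashed line marks the floor of 181; both triangles of CDH11 lie above its round symbols, the filled symbols of SNAI2 lie below its unfilled ones, and CDH1, CDH3 and TWIST1 lie under the line.

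SNAI1 encodes Snail, a zinc finger repressor whose gene is quickly induced by growth factors and TGF-beta. The SNAI1 signal was 171 (control shRNA) and 581 (PIAS1 shRNA2) in DMEM, and 747 and 896 in SCM. The control shRNA array in DMEM stood apart, under the floor, and the other 3 arrays lay within 1.54-fold of each other. In DMEM the knockdown cells had at least 3.22-fold more SNAI1 signal, and in SCM it was 1.20-fold higher. Subtracting the DMEM log2 ratio from the SCM one gave at most -1.42, a difference that has no test. SNAI1 was at least 4.14-fold higher in SCM than in DMEM in control shRNA cells and 1.54-fold higher in PIAS1 shRNA2 cells. SNAI1 has 1 probe set, so all of these ratios with control shRNA cells in DMEM rest on a single dim signal. With the floor raised to 299.8, the 95th percentile of those tissue-specific genes, the log2 ratio of SNAI1 in DMEM was 0.96, under 2-fold.

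SNAI2 encodes Slug, a related repressor that is typical of basal mammary cells and their stem cells. SNAI2 read 5299 (control shRNA) and 7320 (PIAS1 shRNA2) in DMEM, and 1616 and 2858 in SCM. Every signal was well above the floor, and both SCM arrays lay below both DMEM arrays. In either medium SNAI2 was higher with PIAS1 shRNA2, 1.38-fold in DMEM and 1.77-fold in SCM, which did not reach the 2-fold mark. In the same 4 arrays SNAI1 was lowest where control shRNA cells were in DMEM, and SNAI2 was lowest where control shRNA cells were in SCM.

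ZEB1 encodes a zinc finger and homeodomain repressor that is part of a feedback loop with the miR-200 microRNAs. On its brightest probe set ZEB1 read 5223 (control shRNA) and 6108 (PIAS1 shRNA2) in DMEM, and 9217 and 10271 in SCM. Both SCM signals were above both DMEM signals, as they were on the other ZEB1 probe sets. ZEB1 was 1.76-fold higher in SCM in control shRNA cells, with a range of 1.66 to 1.87 over its 3 probe sets, and 1.68-fold higher in PIAS1 shRNA2 cells, with a range of 1.41 to 1.82. Between shRNAs the ZEB1 probe sets differed in sign, with log2 ratios from -0.13 to 0.27 in DMEM and from -0.37 to 0.23 in SCM.

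RefSeq lists 7 transcript starts for ZEB1 in the promoter table of GRCh38.p14, and the letters CACCTG, the core of the E-box that SNAI and ZEB proteins bind, were searched on both strands in the 250 bases before and 50 bases after each start. They occurred in 2 of the 7 ZEB1 windows, in none of the 2 windows of CDH2 and not in the window of VIM, while 20.6% of 35116 such windows of all genes hold them. Only 3 of the 9 genes, CDH2, ZEB1 and VIM, have a window in that table, so CDH1 could not be searched. The ZEB1 window with 3 matches, at chr10:31318966-31319265 on the plus strand, is shown because it holds the most. Whether these letters bear on the ZEB1 signals was not tested. Capitals mark the matches, which begin at -242, -85 and 34 counted from the start:
ZEB1: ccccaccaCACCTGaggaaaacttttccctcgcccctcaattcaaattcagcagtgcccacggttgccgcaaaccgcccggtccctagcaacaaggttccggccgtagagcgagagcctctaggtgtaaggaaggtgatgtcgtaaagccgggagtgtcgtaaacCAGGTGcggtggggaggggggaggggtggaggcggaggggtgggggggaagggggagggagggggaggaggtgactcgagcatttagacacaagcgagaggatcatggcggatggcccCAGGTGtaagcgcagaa
A match of letters is not a measured binding site, and no binding was measured in these files.

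TWIST1, which encodes a basic helix-loop-helix factor of mesoderm, read 89.3 and 51.6 in DMEM and 87.3 and 64.3 in SCM, with control shRNA first in each medium. All 4 TWIST1 signals were in the range of background, so no difference between conditions was detectable.

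VIM gave the brightest signals of the group by far, 65060 (control shRNA) and 74601 (PIAS1 shRNA2) in DMEM, and 71017 and 73617 in SCM. Counted from the brightest of all probe sets, VIM ranked between 67 and 90 on the 4 arrays. Its ratios lay between 0.987 and 1.15 in all 4 comparisons, the smallest movement among the genes above the floor. In bulk RNA, fewer cells of a kind and less RNA per cell cannot be told apart, for VIM and for every other gene here.

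Set against all genes, CDH11 lay far out in the knockdown comparison in both media and SNAI1 in DMEM, while SNAI2 in SCM was the only other gene outside the middle 90%. Of the 5 genes with a signal above the floor in DMEM, CDH11 and SNAI1 were at least 2-fold higher with PIAS1 shRNA2, where 1.57% of 9007 genes were, and none was at least 2-fold lower, where 0.888% were. In SCM, 1 of 6 was at least 2-fold higher, CDH11, against 2.2% of 9344 genes, and none was lower, against 1.53%. A ratio as high as that of CDH11 was seen in 11 genes in DMEM and in 14 in SCM, itself included. These ranks hold for its _x_at probe set only. On the other CDH11 probe set the log2 ratio in DMEM was 1.10, just past the 2-fold mark that 141 genes reached. CDH11 was among 31 genes, or 0.36% of 8609, that were at least 2-fold higher in each medium. CDH11 was known for this from earlier results on these arrays, so its place in these counts is a description.

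Between media the background was wider. In control shRNA cells, SNAI1 alone of 6 genes reached a 2-fold gain in SCM, against 10.8% of 9206 genes, and 1 was lower, SNAI2, against 10.7%. In PIAS1 shRNA2 cells, none of 5 was higher, against 10.9% of 9313 genes, and SNAI2 alone was lower, against 10.4%. SNAI2 was among 685 genes that were at least 2-fold lower in SCM in each line, 7.8% of 8777. A ratio as high as that of ZEB1 was seen in 15.0% of genes in control shRNA cells and in 16.6% in PIAS1 shRNA2 cells, so its rise in SCM was common in size. The 3' to 5' ratio of ACTB was higher in SCM in both lines, whereas that of GAPDH was lower in SCM with control shRNA and higher with PIAS1 shRNA2, and the part of RNA integrity in these ratios was not tested.

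**Figure D2:**
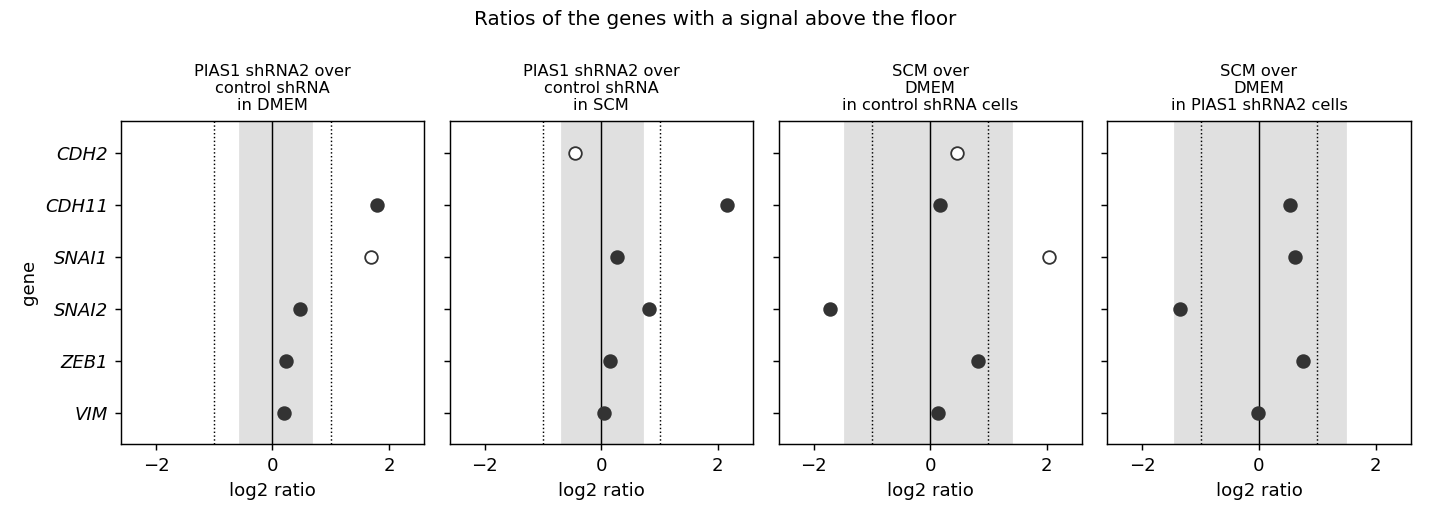
Log2 ratio (x axis) of the genes with at least 1 signal above the floor (y axis) in the 4 comparisons, with signals under the floor set to it and a single array for each condition. Open circles have a signal under the floor and are bounds, grey bands hold the middle 90% of all genes measured in that comparison, and dotted lines mark 2-fold; CDH11 lies to the right of the band in both knockdown panels at 1.80 and 2.15, and SNAI2 lies at -1.71 and -1.36 in the medium panels.

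Other cadherins gave little signal. Of 14 further cadherin genes with a probe set, 8 were under the floor on all arrays and only CDH8 was above it on all 4, between 190 and 275. CDH15, the M-cadherin gene of muscle, was the only one that reached a 2-fold difference. With control shRNA it was higher in SCM, as were 10.8% of all genes. In SCM it was lower with PIAS1 shRNA2, as were 1.53%. CDH9 came close, at 358 in control shRNA cells in SCM and under the floor elsewhere, at least 1.98-fold. CDH15 read 591 in control shRNA cells in SCM and between 153 and 264 elsewhere, while its other probe set stayed under the floor. CDH11 was thus the brightest cadherin signal of all those listed, although signals of different probe sets are not a measure of relative amounts.

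Catenins tie cadherin tails to actin. Of 10 measured genes of catenins and junction partners, none gained 2-fold with PIAS1 shRNA2 in either medium, and 1 was lower, in DMEM. Among all genes 1.57% were higher and 0.888% lower in DMEM, and 2.2% and 1.53% in SCM. The lower gene here was JUP, which encodes plakoglobin, a catenin shared by adherens junctions and desmosomes. JUP read 2271 (control shRNA) and 1049 (PIAS1 shRNA2) in DMEM, and 5682 and 4420 in SCM. Its SCM signals exceeded its DMEM signals in both lines, by 2.50-fold with control shRNA and 4.21-fold with PIAS1 shRNA2. CTNNB1, the beta-catenin gene, lay between 5646 and 7389 on all arrays. CTNNAL1, which encodes alpha-catulin, fell by 1.09 and 1.58 on the log2 scale in SCM, and its log2 ratios of PIAS1 shRNA2 over control shRNA were -0.32 in DMEM and -0.81 in SCM.

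Among 8 other EMT transcription factors with a probe set, ZEB2, TCF3 and ETS1 were above the floor on all 4 arrays. ZEB2, the paralog of ZEB1, was dim and lay between 232 and 319. LEF1, a nuclear partner of beta-catenin, read 414 (control shRNA) and 434 (PIAS1 shRNA2) in DMEM, and 57.5 and 482 in SCM. The control shRNA array in SCM thus stood alone for LEF1, and its other probe sets were near or under the floor. ETS1 was at least 2-fold lower in SCM in both lines, with log2 ratios of -1.10 and -1.22.

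Among genes of the epithelial and of the mesenchymal state, more were at least 2-fold higher in SCM than were 2-fold lower, in cells whose CDH1 signal was background. Of 21 measured epithelial genes, 8 were at least 2-fold higher in SCM in control shRNA cells and none lower, against 10.8% and 10.7% of all genes, with a median log2 ratio of 0.84 against 0.04 over all genes. The other 13 were within 2-fold, among them TJP1, the gene of the tight junction protein ZO-1, at -0.96. In PIAS1 shRNA2 cells 8 of 20 were higher and 2, the keratin genes KRT8 and KRT18, were lower, against 10.9% and 10.4% of all genes, with a median of 0.78 against -0.01. Of the genes at least 2-fold higher, 7 were so in both lines. SPINT1, which encodes an inhibitor of the protease matriptase, read 51.3 and 26.8 in DMEM and 3323 and 5445 in SCM, with control shRNA first. CLDN7, a tight junction claudin gene, was 10.6-fold higher in SCM with control shRNA and 7.51-fold higher with PIAS1 shRNA2. PPL, which encodes the desmosomal plakin periplakin, had log2 ratios of at least 2.55 and 1.80, and the keratin gene KRT19 had 2.16 and 1.76.

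Of 26 measured mesenchymal genes, 11 were at least 2-fold higher in SCM in control shRNA cells, 2 were lower and 13 were within 2-fold, against 10.8% higher and 10.7% lower among all genes. Their median log2 ratio was 0.76 against 0.04. In PIAS1 shRNA2 cells 12 of 27 were higher and 2 lower, with a median of 0.70 against -0.01, and 10 higher and both lower genes were shared by the lines. LOX, which encodes the collagen cross-linking enzyme lysyl oxidase, was 17.7-fold higher in SCM with control shRNA and 8.02-fold higher with PIAS1 shRNA2, and MMP14, a membrane-bound collagenase gene, had log2 ratios of 2.50 and 2.80. TAGLN and TPM1, which encode actin-binding proteins of smooth muscle and stress fibres, were the 2 lower genes, with -1.48 and -1.40 in control shRNA cells. Each array enters a medium comparison and an shRNA comparison, so the ratios of a gene share their signals.

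Between shRNAs few genes of either group differed 2-fold. None of 18 measured epithelial genes in DMEM and none of 22 in SCM differed at least 2-fold, with medians of -0.04 and -0.26. Of 27 measured mesenchymal genes, 2 gained at least 2-fold in PIAS1 shRNA2 cells in each medium and none was 2-fold lower, with medians of 0.10 and 0.14. Among all genes 1.57% were higher in DMEM and 2.2% in SCM, and 0.888% and 1.53% were lower. In DMEM the 2 mesenchymal genes were FN1, the fibronectin gene, which read 8481 and 24988, and TGFBI, which read 7736 and 18740. TGFBI encodes a matrix protein induced by TGF-beta. In SCM the 2 mesenchymal genes were SPARC, the osteonectin gene, at 168 and 500, and TNC, the tenascin-C gene, at 669 and 1423. The lower SPARC signal was under the floor, so its ratio is a bound. The other probe set of SPARC read 42.4 and 79.8 in SCM and that of TNC 77.6 and 110, all under the floor. The FN1 signal was lowest with control shRNA in DMEM, at 8481 against 43133 and 54620 in SCM. On 5 of its 6 probe sets FN1 had log2 ratios between 1.48 and 1.76 in DMEM, and on the dimmest 0.11.

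TGF-beta is the best known inducer of SNAI1, and all 15 genes listed for its pathway were above the floor on all 4 arrays. With PIAS1 shRNA2, 1 was at least 2-fold different, the ligand gene TGFB3 in SCM, which read 450 and 1218. Of all genes, 2.2% were at least 2-fold higher and 1.53% lower in SCM, and 1.57% and 0.888% in DMEM. In DMEM TGFB3 read 280 and 557, a log2 ratio of 0.99. Between media the ligand genes moved apart. TGFB1 was 3.82-fold higher in SCM with control shRNA and 3.83-fold higher with PIAS1 shRNA2 on its bright probe set, while its dim one gave log2 ratios of -0.51 and 0.43. TGFB2 fell by 2.04 on the log2 scale in both lines on its brightest probe set. LTBP1, which encodes a protein that holds TGF-beta latent in the matrix, was 3.42-fold and 3.55-fold higher.

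The co-repressors through which SNAI and ZEB proteins silence genes did not differ 2-fold between shRNAs in any of 10 measured cases. Few of all genes did so, 1.57% higher and 0.888% lower in DMEM and 2.2% and 1.53% in SCM. In SCM, EZH2, the histone H3 lysine 27 methyltransferase gene, was 5.52-fold lower with control shRNA and 6.21-fold lower with PIAS1 shRNA2. SUV39H1, a histone H3 lysine 9 methyltransferase gene, read 3174 and 3302 in DMEM against 1182 and 825 in SCM, with control shRNA first. The other 8 were within 2-fold in both lines, among them the CTBP1 and CTBP2 genes of the partners of ZEB1. Among all genes 10.7% were at least 2-fold lower in SCM with control shRNA and 10.4% with PIAS1 shRNA2.

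**Figure D3:**
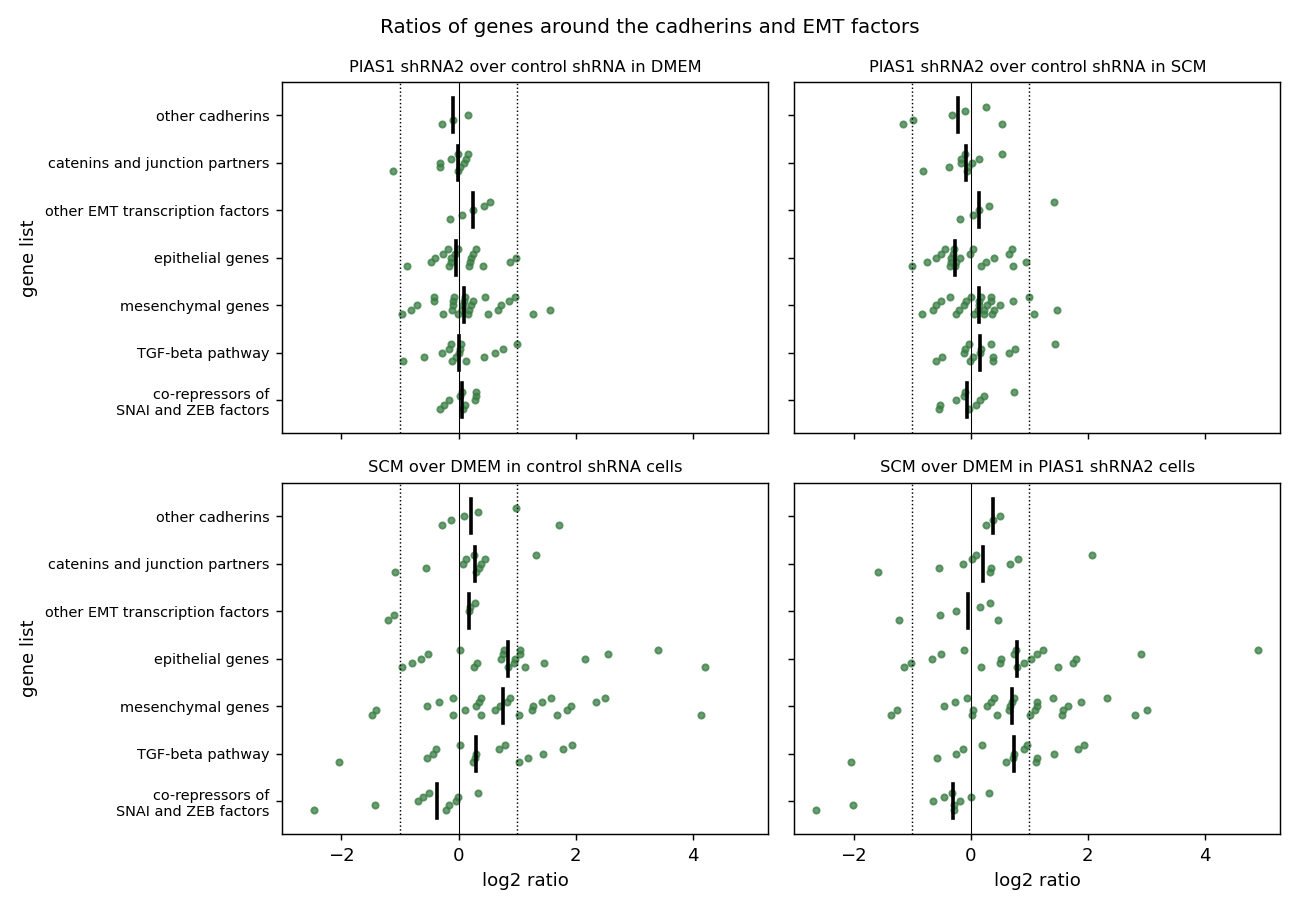
Log2 ratio (x axis) of each measured gene of 7 lists (y axis) in the 4 comparisons, each condition on a single array and signals under the floor set to it. Points are genes, black bars list medians and dotted lines 2-fold; the medians of the epithelial and mesenchymal genes are 0.84 and 0.76 in SCM over DMEM with control shRNA, and between -0.26 and 0.14 in the knockdown panels.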

How the data were processed

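The authors deposited linear signal intensity values. MAS5, which summarises the Affymetrix probes, is the tool in the submitters' processing notes, with version, settings and detection calls not given in the sources used here. Each array had been scaled by the authors to a mean of 2501 without the lowest and highest 2%, checked on the values.

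Names came from the platform's gene table, which lists 19070 with 1 symbol, 1043 with several and 2164 with none. Entrez identifiers of 19058 matched RefSeq (GRCh38.p14), with 0 symbols changed. Each gene took the probe set with its highest mean log2 signal. The floor of 181 is the 75th percentile over 59 probe sets of genes specific to other tissues, the highest of the 4 arrays, and lower signals were raised to it. A gene was measured in a comparison if at least 1 of the 2 signals was above the floor, and a difference was counted from 2-fold.

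The genes, lists and rules were chosen with earlier results of these data known. Members were named with all values, and of each list the genes furthest from 0 among those at least 2-fold different, up to 4. CTNNB1, ZEB2, TCF3, CDH8, KRT8, KRT18, TAGLN, TPM1, CTBP1, CTBP2, DSP, DSG2, EVPL, TJP1 and FBN1 were named after their values were seen. With 1 array per condition no test was run. Steps were tested on simulated data with Python 3.11.15, NumPy 2.4.6, pandas 2.3.3 and matplotlib 3.10.9. The alternatives were other floors, other scalings, the mean of all probe sets and, chosen after seeing the data, leaving out _x_at probe sets. The number of arrays limits the precision.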

Additional observations from a re-analysis of the deposited data

How the results depend on the processing

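The counts depend mainly on the floor. With no floor, genes at least 2-fold higher and lower numbered 1248 and 850 for PIAS1 shRNA2 in DMEM (141 and 80 with the floor), 1012 and 1021 in SCM (206 and 143), 2216 and 1618 for SCM in control shRNA cells (991 and 984) and 1978 and 1778 in PIAS1 shRNA2 cells (1018 and 967). The cadherin and EMT genes higher then numbered 3 for the knockdown in DMEM and 2 in SCM. For SCM over DMEM they numbered 2 in control shRNA cells and 1 in PIAS1 shRNA2 cells. Each count was 1 more than with the floor because CDH1, with signals in the range of background, was counted. With the floor at 299.8, 69 genes were higher and 41 lower for the knockdown in DMEM and 70 lower in SCM, and 1 EMT gene, CDH11, was higher in DMEM, as SNAI1 had a log2 ratio of 0.96 there and of 1.32 in SCM over DMEM in control shRNA cells. With the floor at the highest array median of 605, 31 genes were higher and 23 lower in DMEM, 81 higher and 47 lower in SCM, and 631 and 662 were higher in SCM over DMEM in control shRNA and PIAS1 shRNA2 cells. CDH11 alone of the EMT genes was then higher in DMEM, and 0 were higher in SCM over DMEM in control shRNA cells, where SNAI1 had 0.30. After quantile normalization 121 genes were lower in DMEM. Without _x_at probe sets, CDH11 had a log2 ratio of 1.10 in DMEM. Of the members' other log2 ratios that could be formed under these 7 alternatives, none moved by over 1.5-fold and no ratio of 2-fold or more changed sign. The ratios of CDH2 could not be formed with the floor at 299.8 or 605, because its signals were then under the floor. The same held for SNAI1 between shRNAs in DMEM with the floor at 605. Signals near the floor limit SNAI1 and CDH2, and the number of arrays limits all ratios. The labels carry no replicate numbers, so none could serve as a block. A fit of shRNA and medium as additive terms over the 4 arrays, which takes any difference between media in the response to the shRNA for error, was not run.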

Other observations

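Genes of the desmosome, a junction whose cadherins are desmogleins and desmocollins, did not move together with PIAS1 shRNA2. DSP, which encodes desmoplakin, read 3038 (control shRNA) and 6012 (PIAS1 shRNA2) in DMEM, and 5427 and 10428 in SCM, which is 1.98-fold and 1.92-fold higher. DSG2, the desmoglein-2 gene, was 1.84-fold higher in DMEM and 1.57-fold higher in SCM. JUP, whose product binds the tails of desmosomal cadherins, had log2 ratios of -1.11 and -0.36 in the same comparisons. EVPL, the gene of the plakin envoplakin, read 686 and 493 in DMEM and 694 and 349 in SCM, with log2 ratios of -0.48 and -0.99. DSP, DSG2 and EVPL were under 2-fold and each has 1 probe set. FBN1, the gene of the matrix protein fibrillin-1, lay just under 2-fold in SCM, at 1054 and 2108.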
